A study of Homo sapiens with 4 samples.

Results

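The genes described here are those whose symbol follows the naming scheme of potassium channel (KCN), sodium channel (SCN) or calcium channel (CACNA, CACNB, CACNG) subunits. The rule went by symbol alone, among protein-coding genes, with 1 probe set per symbol, and was set with earlier results of these data known. RefSeq holds 135 protein-coding symbols of this form. Of these, 4 had a probe set annotated with a single gene symbol, among 14812 such named genes in all. The other 131 were not analysed here. The 4 genes, measured by 5 probe sets, were KCNE5, KCNIP1, KCNIP2 and KCNIP4. All are potassium channel accessory subunits and none forms a pore, so their values say nothing about the pore-forming subunits that the symbol rule also names, and the genes are called accessory subunits throughout.

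RNA came from BE(2)C cells, a clonal human neuroblastoma line, grown in culture and transfected with a lipid reagent. One group received siRNA against SSRP1 and the other a non-targeting control siRNA, with 2 samples in each group and 1 array per sample. SSRP1 belongs to FACT, a histone chaperone complex that opens and reassembles nucleosomes, and the labels give a single product number for the siRNA against it. RNA was isolated 72 hours after transfection, and no label says whether the replicates were separate cultures. The p-values therefore rest on a spread between samples that could be technical.

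Voltage-gated potassium channels let potassium leave the cell when the membrane depolarises, which shortens action potentials and sets how fast a neuron can fire again. The proteins encoded by KCNIP genes, called KChIPs, are calcium-binding EF-hand proteins of the neuronal calcium sensor family. They attach to the cytoplasmic end of the Kv4 channels that carry the fast A-type current, bring those channels to the cell surface and change how quickly they inactivate and recover. KCNE genes encode small proteins with a single membrane span that lie beside the pore-forming subunits and change their gating. Sympathetic neurons, the lineage from which neuroblastoma arises, carry A-type and delayed-rectifier potassium currents.

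The siRNA target was lower in the cells that received its siRNA. SSRP1 had log2 values of 7.42 and 6.97 with SSRP1 siRNA, against 9.05 and 9.23 with control siRNA. Its limma log2 change was -1.95 ± 0.17 (SE, adjusted p = 0.0479), which left 26.0% of the control level (95% interval 19.3 to 34.8%). That call was lost with robust variances (limma adjusted p = 0.0512), over all probe sets (0.144), with the replicate number as a block (0.0569) and without any 1 array (0.241 to 0.599). Array medians over all 46255 probe sets lay between 3.37 and 3.42, and Pearson correlations between arrays over probe sets lay between 0.990 and 0.993. Of 14 markers of sympathetic neuroblasts 12 were measured, and all 12 lay above the median level of all named genes, which was 4.64. So did 1 of 2 measured fibroblast markers and 2 of 3 measured Schwann and glial markers. A level above the median is therefore not particular to the neuroblast markers.

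Accessory subunit transcripts were compared between the groups to ask whether they differed when SSRP1 was depleted. One of them, KCNIP4, was lower on both SSRP1 siRNA arrays than on both control arrays, at 67.3% of the control level, but it did not pass the test over all genes. KCNIP1, KCNIP2 and KCNE5 had overlapping groups and changes of 0.11 or less in size on the log2 scale. None of the 4 passed limma's test at an adjusted p under 0.05, a rule that 0.0945% of all named genes met.

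KCNIP4 encodes KChIP4, a KChIP found mainly in brain, one form of which slows the inactivation of Kv4 channels. RefSeq places the gene on the minus strand of chromosome 4, chr4:20728606-21948772 in GRCh38.p14, a span of 1220167 bases with 7 curated transcripts. RefSeq gives 3 separate start windows for it, each from 250 bases before to 50 bases after an annotated start. They are shown because KCNIP4 is the gene on which the comparison turns, and because 1 probe set value stands for transcripts from all of its starts that contain the probed exons. Capitals mark the GC box GGGCGG on either strand.

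KCNIP4 start window at chr4:21948723-21949022, minus strand: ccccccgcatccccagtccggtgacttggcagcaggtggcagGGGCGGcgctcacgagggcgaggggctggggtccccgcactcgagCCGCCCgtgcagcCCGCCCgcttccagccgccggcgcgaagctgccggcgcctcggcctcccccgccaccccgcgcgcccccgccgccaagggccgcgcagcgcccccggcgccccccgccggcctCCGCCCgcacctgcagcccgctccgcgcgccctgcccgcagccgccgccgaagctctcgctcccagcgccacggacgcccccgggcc
KCNIP4 start window at chr4:21697691-21697990, minus strand: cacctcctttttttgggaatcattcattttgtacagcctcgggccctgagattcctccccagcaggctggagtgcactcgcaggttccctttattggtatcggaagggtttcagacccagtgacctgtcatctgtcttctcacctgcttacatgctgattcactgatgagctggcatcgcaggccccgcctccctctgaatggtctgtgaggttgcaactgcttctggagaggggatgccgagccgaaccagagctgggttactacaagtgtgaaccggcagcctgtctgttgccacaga
KCNIP4 start window at chr4:20984021-20984320, minus strand: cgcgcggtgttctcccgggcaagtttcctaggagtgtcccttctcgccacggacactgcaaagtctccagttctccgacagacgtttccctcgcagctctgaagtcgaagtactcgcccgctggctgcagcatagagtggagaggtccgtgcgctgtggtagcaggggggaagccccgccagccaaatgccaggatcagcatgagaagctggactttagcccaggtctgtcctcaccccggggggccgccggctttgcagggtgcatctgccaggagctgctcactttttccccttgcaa

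The first of these windows, at the end of the gene farthest upstream, held 83.3% G and C, 47 CpG dinucleotides and 4 GC boxes. The second held 54.7% G and C and 8 CpG dinucleotides, and the third 61.7% and 18, with no GC box in either. Over all 35116 RefSeq start windows the median was 58.7% G and C with 14 CpG dinucleotides, and 45.0% held a GC box. The 3 starts of KCNIP4 therefore differ in base composition, and the array value does not say from which of them its transcripts began.

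KCNIP4 (probe set 16974749, accession NM_147182) had log2 values of 3.46 and 3.17 on the SSRP1 siRNA arrays, against 3.95 and 3.83 on the control arrays. Both SSRP1 siRNA values lay below both control values, and the 4 differences between an SSRP1 siRNA array and a control array ran from -0.77 to -0.37. The group means were 3.32 ± 0.20 with SSRP1 siRNA and 3.89 ± 0.08 with control siRNA (SD, n = 2 each). The limma log2 change was -0.57 ± 0.13 (SE), with a 95% interval from -0.90 to -0.24, or 67.3% of the control level with an interval from 53.6 to 84.5%. The unadjusted limma p was 0.00557 and the adjusted p over all genes 0.216.

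KCNIP4 was the 1 accessory subunit of 4 with an unadjusted p under 0.05, a share that was 12.6% over all named genes in either direction, 6.03% for lower values and 6.56% for higher ones. It was the only one of the 4 whose groups did not overlap. That held for 44.3% of all named genes, 22.5% with lower values and 21.8% with higher ones. Genes with a small p tend to have such groups, so this adds nothing to the p of KCNIP4. A smaller p was found for 381 genes (2.57%), and a change further below 0 for 138 genes (0.932%). KCNIP4 thus lies toward the lower end of the changes of all genes without passing the test.

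**Figure D1:**
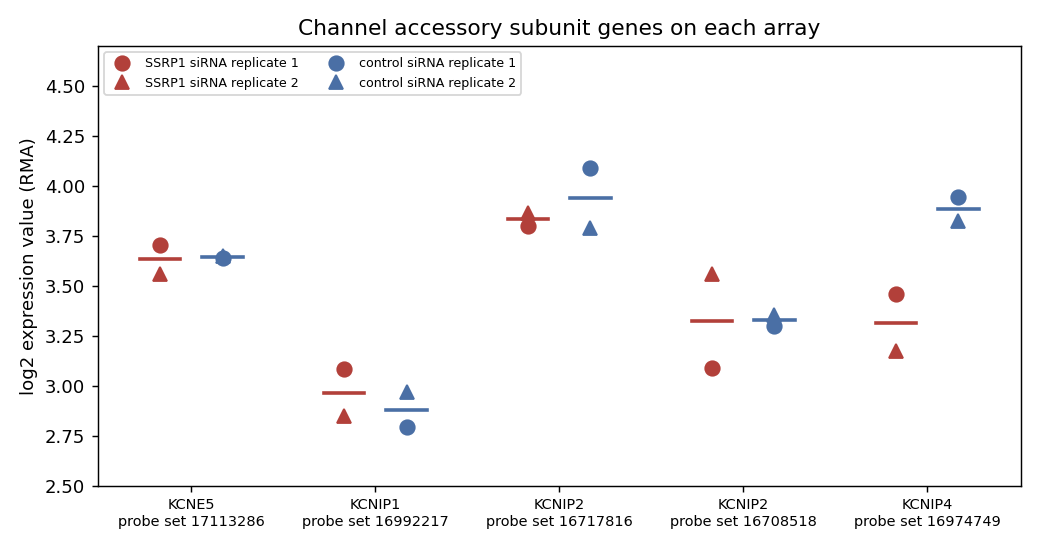
Log2 expression values (vertical axis) of the 5 probe sets of the 4 accessory subunit genes on each array. Points are single arrays, circles replicate 1 and triangles replicate 2, SSRP1 siRNA in red on the left and control siRNA in blue on the right, with a bar at each group's mean. KCNIP4 alone has both SSRP1 siRNA points (3.46 and 3.17) below both control points (3.95 and 3.83).

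KCNIP2 encodes KChIP2, the KChIP best known from the heart, where it is needed for the transient outward current. The gene lies on the minus strand of chromosome 10, chr10:101825974-101843800 in GRCh38.p14, with 7 curated transcripts. It was the only accessory subunit gene with several probe sets. The brighter set, 16717816, had log2 values of 3.80 and 3.86 with SSRP1 siRNA, against 4.09 and 3.79 with control siRNA. The groups overlapped, since the second control value was the lowest of the 4 and the first the highest. The group means were 3.83 ± 0.05 with SSRP1 siRNA and 3.94 ± 0.21 with control siRNA (SD, n = 2 each). Its limma log2 change was -0.11 ± 0.13 (SE, 95% interval -0.43 to 0.22, adjusted p = 0.800).

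The other KCNIP2 probe set, 16708518, had log2 values of 3.09 and 3.56 with SSRP1 siRNA, against 3.30 and 3.35 with control siRNA. Its SSRP1 siRNA arrays were the lowest and the highest of the 4, on either side of both controls. The log2 change of that set was -0.002 ± 0.18 (SE, 95% interval -0.45 to 0.45) in the limma fit over all probe sets, with an adjusted p of 0.998. The difference of the brighter set, -0.11, was smaller in size than the SD of its control replicates, 0.21, but larger than that of its SSRP1 siRNA replicates, 0.05. The difference of set 16708518 was smaller than the spread between replicates in either group.

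KCNIP1 encodes KChIP1, found in many inhibitory interneurons of the brain. The gene lies on the plus strand of chromosome 5, chr5:170353487-170736632 in GRCh38.p14, a span of 383146 bases with 5 curated transcripts. It had log2 values of 3.08 and 2.85 with SSRP1 siRNA, against 2.79 and 2.97 with control siRNA, and the arrays of both groups interleaved. The group means were 2.97 ± 0.17 with SSRP1 siRNA and 2.88 ± 0.12 with control siRNA (SD, n = 2 each). The limma log2 change was 0.08 ± 0.13 (SE, 95% interval -0.24 to 0.41, adjusted p = 0.839), the only one of the 4 above 0.

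KCNE5 encodes the KCNE family protein that holds down the slow delayed-rectifier current in expression studies. The gene is short, 1473 bases on the minus strand of the X chromosome, chrX:109623700-109625172 in GRCh38.p14, with 1 curated transcript. It had log2 values of 3.71 and 3.56 with SSRP1 siRNA, against 3.64 and 3.65 with control siRNA. Both control values lay between the SSRP1 siRNA values. The group means were 3.63 ± 0.10 with SSRP1 siRNA and 3.64 ± 0.01 with control siRNA (SD, n = 2 each). The limma log2 change was -0.01 ± 0.11 (SE, 95% interval -0.27 to 0.25, adjusted p = 0.981). That interval leaves room for a level between 82.8% and 119% of the control level.

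The median log2 change of the 4 accessory subunits was -0.06, beside -0.01 over all named genes. It was -0.13 when control siRNA replicate 2 was left out and -0.0097 when control siRNA replicate 1 was. With 4 genes, 1 of them above 0 and 3 below, that median says little about them as a group. The 3 KChIP genes did not show one common change: KCNIP4 stood at -0.57, KCNIP2 at -0.11 and KCNIP1 at 0.08. Whether KCNIP4 differed from its paralogs in its change was not tested.

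All 4 accessory subunit genes were dim on these arrays. Their means over the 4 arrays lay between 2.92 and 3.89, below the median of 4.64 over all named genes. Between 23.5% (KCNIP1) and 38.4% (KCNIP2) of named genes had a dimmer probe set, a statement on brightness and not on RNA abundance, since probe sets differ in how they respond. No detection values were used here, so a dim value may hold background as well as RNA, and how far this affects the changes was not tested. Fewer cells that express a gene and less of its RNA per cell cannot be told apart in bulk RNA.

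**Figure D2:**
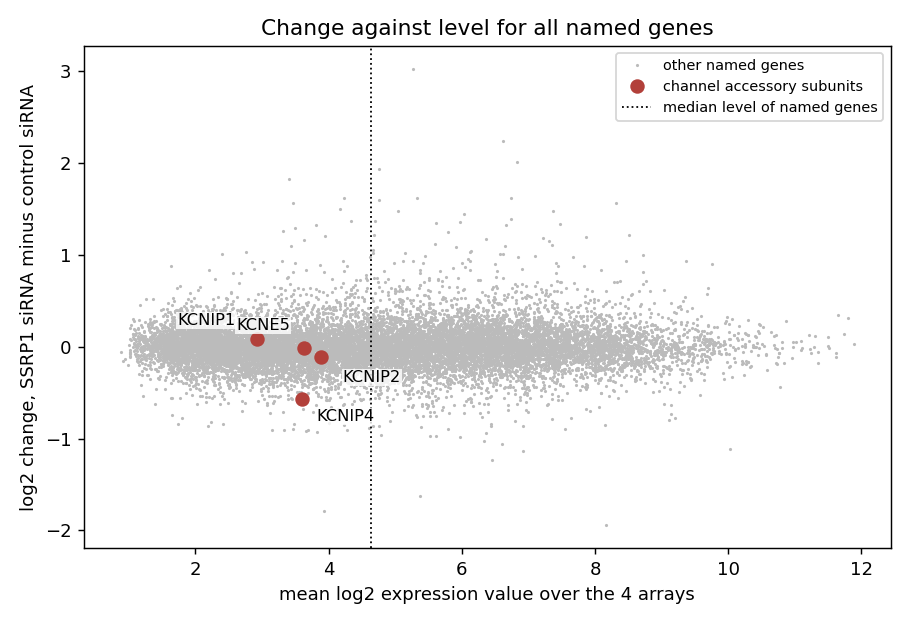
Log2 change, SSRP1 siRNA minus control siRNA (vertical axis), against the mean log2 value over the 4 arrays (horizontal axis) for all 14812 named genes, 1 point per gene, with the accessory subunits in red and a dotted line at the median level of 4.64. The 4 accessory subunits lie left of the line, and KCNIP4 at -0.57 lies in the lower part of the points while the others lie within 0.11 of 0.

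The start windows of the other accessory subunits were compared with those of KCNIP4. RefSeq gave 8 windows for the 4 genes, those of KCNIP4 included. A GC box was held by 5 of the 8, beside 45.0% of all windows, and so few windows do not set these genes apart. KCNIP2 had windows of 71.3% and 70.3% G and C, KCNE5 a window of 73.3%, and KCNIP1 windows of 74.7% and 53.0%. None of the 8 held an E-box (CACGTG, in 7.3% of all windows) or a TATA box (TATAAA, in 11.5%), each searched on both strands. These matches describe the letters in 300 bases and nothing more.

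Other genes of membrane excitability were read from the same fit as a list of 73 genes, of which 36 were measured. The list took in hyperpolarisation-activated and other channels, ion pumps, anchoring and adhesion proteins, small GTPases and growth factor homologs. No ion pump was among the 36 measured, so the shares below do not cover pumps. The list also held the transcription regulators REST and RCOR1, so its shares do not describe channel-binding proteins alone. None of the 36 passed at an adjusted p under 0.05, as 0.0945% of all named genes did. An unadjusted p under 0.05 was found for 8 (22.2%), 6 of them lower and 2 higher, against 12.6% of all named genes, 6.03% lower and 6.56% higher. Of the 36 genes 24 (66.7%) had a change below 0, with a median of -0.05, against 51.7% and a median of -0.01 over all named genes. The groups did not overlap for 16 (44.4%), beside 44.3% of all named genes.

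DPP6 and DPP10, named after their values were seen, encode the transmembrane proteins that join KChIPs in Kv4 channel complexes. DPP6 had log2 values of 6.18 and 6.01 with SSRP1 siRNA, against 6.40 and 6.07 with control siRNA, a change of -0.14 ± 0.15 (SE) with overlapping groups. DPP10 was dim, at 2.27 and 2.12 with SSRP1 siRNA against 2.30 and 2.28 with control siRNA, a change of -0.09 ± 0.11 (SE) with no overlap between the groups. Neither difference was as large as that of KCNIP4, and neither had an unadjusted p under 0.05.

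The genes of the list with the smallest p were FGF11, GEM and NRCAM. FGF11, a fibroblast growth factor homolog that stays in the cell and belongs to a family that binds sodium channels, had log2 values of 6.32 and 5.81 with SSRP1 siRNA, against 7.19 and 7.06 with control siRNA, a change of -1.06 ± 0.18 (SE, limma adjusted p = 0.142). GEM, a small GTPase that inhibits voltage-gated calcium channels, had 5.24 and 5.22 with SSRP1 siRNA against 6.20 and 5.79 with control siRNA, a change of -0.76 ± 0.16 (SE, limma adjusted p = 0.184). NRCAM, an adhesion protein of nodes and axon initial segments where sodium channels cluster, had a change of 0.50 ± 0.11 (SE, limma adjusted p = 0.214). Like KCNIP4, these genes did not pass the test over all genes. Their groups did not overlap either, which held for 44.3% of all named genes. Genes picked for a small p tend to have such groups, so this adds nothing to their p.

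**Figure D3:**
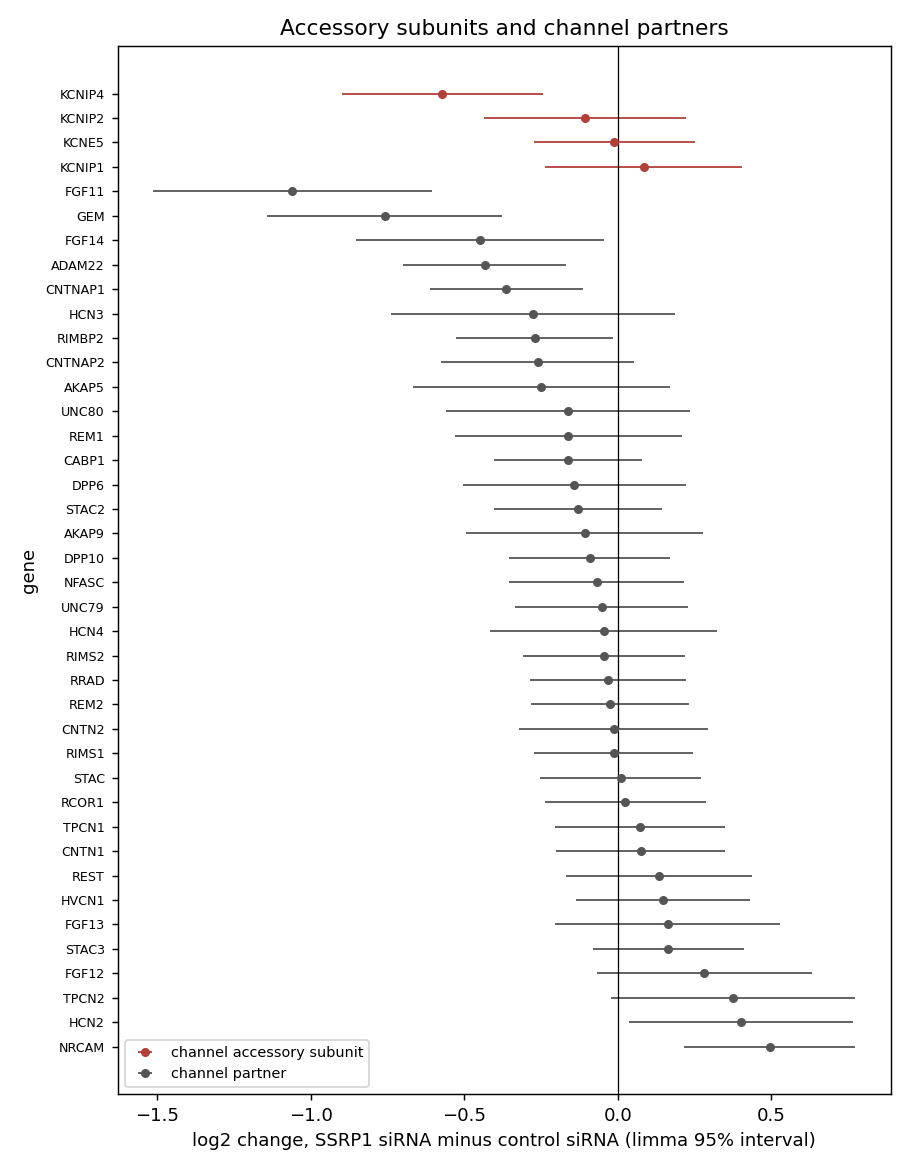
Log2 change, SSRP1 siRNA minus control siRNA (horizontal axis), of the 4 accessory subunit genes (red, top) and the 36 measured channel partner genes (grey), each group sorted by change, with limma 95% intervals as bars. The interval of KCNIP4 (-0.90 to -0.24) lies below 0, and those of KCNIP1, KCNIP2 and KCNE5 cross 0.

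Markers of cell types were read beside these values. Of the 12 measured neuroblast markers 9 had a change below 0 and 3 above, where 51.7% of all named genes lay below 0. An unadjusted limma p under 0.05 was found for 5 of the 12, not split by direction, against 12.6% of all named genes. The summed linear level of the 12 ran from 7013 to 7105 with SSRP1 siRNA and from 7404 to 7488 with control siRNA. Bright markers weigh most in that sum, and the mean log2 values of the 12 ran from 6.52 to 10.7. Of 5 fibroblast markers 2 were measured, LUM with a log2 change of 1.20 and DCN with -0.04. LUM carried most of their summed level, which ran from 332 to 391 with SSRP1 siRNA and from 126 to 205 with control siRNA. Of 5 Schwann and glial markers 3 were measured, 2 with a change above 0 and 1 below. Their summed level ran from 95.4 to 105 with SSRP1 siRNA and from 87.6 to 89.0 with control siRNA. An unadjusted limma p under 0.05 was found for 1 of these 3 markers and for 1 of the 2 fibroblast markers. Of the blood and endothelial markers CD14 alone was measured and of the muscle markers MYOG alone, both below the median level, and the SSRP1 siRNA and control siRNA values overlapped. None of the measured markers passed the test over all genes, and whether the dim ones were detected above background was not assessed. Their part in the KCNIP4 difference was not tested.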

How the data were processed

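Gene expression was measured on 4 Affymetrix Human Gene 2.0 ST arrays of BE(2)C cells, 2 per group, grouped by sample title. Values were deposited as log2 signals from RMA, per the submitters' processing notes, with 1 value per probe set and array. Which software ran it, in what version and on which probe set definition, is not given in the sources used. The log2 scale was inferred from the range of the values, 0.502 to 12.8. RMA makes the arrays' distributions alike, which would hide a change common to all transcripts.

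Gene names came from the platform annotation, with gene IDs matched to RefSeq (GRCh38.p14). Of 46255 probe sets 15835 had a single gene name, for 14812 genes. The other 30420, with no gene name or with several, were not counted as named. A gene with several probe sets was represented by its brightest one on average. limma 3.58.1 in R 4.3.3 (lmFit, eBayes without trend or robust estimation, 2 residual and 3.79 prior degrees of freedom) compared SSRP1 siRNA with control siRNA over all named genes, with Benjamini-Hochberg adjustment over all of them. All p-values of genes are two-sided and from this fit, unless another fit or an alternative is named. The 95% intervals use the standard errors of the fit that gave the change. No detection or background values were used, and the number of arrays limits the precision.

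The accessory subunits and the lists of partners and markers were chosen with earlier results of these data known. All 4 accessory subunits are named. The rule for partners names those past the test, or the 3 with the smallest p. Alternatives were a variance trend, robust variances, quantile normalization, median centring, averaging the probe sets of a gene, genes at or above the median level, all probe sets, the replicate number as a block, an adjusted p under 0.1 and each array left out. Start windows and loci are from RefSeq.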

Additional observations from a re-analysis of the deposited data

How the results depend on the processing

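None of the 4 accessory subunits passed limma's test under any alternative that included them, and KCNIP4 alone had an unadjusted p under 0.05 in each. Genes at or above the median level held none of them, so that alternative gave no value for them. The KCNIP4 change lay between -0.71 and -0.43 over 11 alternatives, all below 0, with an adjusted p between 0.156 and 0.599. Leaving out 1 array moved it most: leaving out replicate 2 of the SSRP1 siRNA group gave -0.43, and leaving out its replicate 1 gave -0.71. The signs of the other 3 were not stable. KCNE5 stood at 0.014 after quantile normalization and at 0.010 after median centring, and between -0.084 and 0.063 with 1 array left out. KCNIP1 lay between -0.032 and 0.20 and KCNIP2 between -0.26 and 0.045 with 1 array left out. The median change of the 4, -0.06, lay between -0.13 and -0.0097 with 1 array left out. The SSRP1 change was -1.95 with robust variances (adjusted p = 0.0512), over all probe sets (adjusted p = 0.144) and with the replicate block (adjusted p = 0.0569), none past the test, and between -2.17 and -1.72 with 1 array left out (adjusted p between 0.241 and 0.599). The count of all genes past the test, 14, was 215 with a variance trend, 9 with robust variances, 28 after quantile normalization, 23 after median centring, 179 among genes at or above the median level, 0 over all probe sets (limma, with 3854 below an unadjusted p of 0.05), 6 with the replicate block, 41 at an adjusted p under 0.1 and 0 without any 1 array (limma, 1200 to 1672 at an unadjusted p under 0.05). The cause of these differences was not tested, apart from the fewer or more features and the fewer arrays that some alternatives hold by construction. Deviations of same-numbered arrays correlated at 0.077 over probe sets, and neither this value nor the labels tie same-numbered samples together. The numbers were therefore not used as pairs, and whether such samples share a culture or day is not known. With the block the KCNIP4 adjusted p was 0.156.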
